A study of Arabidopsis thaliana with 13 samples.

Results

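The chloroplast genome of Arabidopsis thaliana keeps a small set of genes for its own gene expression, and root plastids, which are not green, carry the same genome. The genes described here are those for the plastid RNA polymerase, the plastid ribosomal proteins, the intron maturase, the Clp protease, an acetyl-CoA carboxylase subunit, and factors of the envelope and of photosystem or cytochrome assembly. They were taken from the platform's probe table as probe sets whose one gene symbol is a listed gene of the plastid genome, with mitochondrial genes of the same name left out. This gave 33 probe sets for 32 genes, of 77 plastid-encoded probe sets and 22810 probe sets on the array. The other 44 plastid-encoded probe sets measure photosynthesis genes. For 26 of the 33 the table listed 1 gene entry. The other 7 probe sets, for 6 genes (rps12, rpl2, rpl23, ycf2, rps7 and ycf1), listed 2 entries of one symbol. For rpl2, rpl23, ycf2, rps7 and ycf1 the entries are the copies in the inverted repeat, and the probe sets measure both together. For rps12 the listed position lies between rpl20 and clpP, and its entries are not read as repeat copies.

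Roots of 5 genotypes were compared on 13 ATH1 arrays. CLE3ox lines 12-1 and 17-3 overexpress CLE3, a gene for a small signalling peptide, in Col-0 (n = 2 arrays each), and were set against Col-0 wild type (n = 3). The mutant clv1-15, which affects the receptor kinase gene CLAVATA1, is in Ler (n = 3) and was set against Ler wild type (n = 3), so clv1-15 and Ler share the Landsberg erecta background and both lines share Col-0. All plants were 10 days old and grew at 22 °C with 16 h light and 8 h dark on medium with 0.1 mM KNO3 and 1% sucrose, and whole roots were harvested. The promoter that drives CLE3 and the nature of the clv1-15 lesion are not given in the sources used here. The labels call the arrays of a group biological replicates without saying that they come from separate cultures, so p-values measure the spread between these arrays.

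In plants, plastid genes are read by a bacterial-type polymerase, whose core subunits rpoA, rpoB, rpoC1 and rpoC2 are plastid-encoded, together with phage-type polymerases encoded in the nucleus. The plastid ribosome is also of bacterial type, and its proteins come in part from the plastid rps and rpl genes and in part from nuclear genes. Many plastid genes are transcribed in long shared units that are then cut and spliced, so neighbouring genes can share a primary transcript while their mature RNAs differ in level.

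Values are MAS5 signals on a linear scale, and the median signal of an array lay between 189.8 and 200.1. Differences are given as log2 differences ± SE from limma, fitted on log2(signal + 16) over 15922 probe sets, with p-values adjusted over all of them, and a member passed at an adjusted p under 0.05. No level of one probe set is compared with that of another. Of the 33 probe sets 31 passed the filter on low values and were tested. Those of rps14, for a small subunit protein, and ycf2, for a large protein linked to import at the inner envelope, did not. Their signals lay between 11.7 and 44.8 and between 16.8 and 55.6 over the 13 arrays. On the log2 scale their means were 5.40 and 5.56, against a limit of 6.08. The lowest members inside the limit were rpoB at 6.40 and rps16 at 6.49. rpoB passed only through the Col-0 background, with group means of 6.77 in line 12-1, 7.08 in line 17-3 and 6.66 in Col-0, and of 5.95 in clv1-15 and 5.88 in Ler, both under the limit. The other 30 tested members were above it in every group. In whole roots, fewer plastid-bearing cells, fewer plastids and less RNA per cell cannot be told apart.

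In CLE3ox roots 2 of 31 members, rpoA and rps4, rose against Col-0 and 0 fell. In clv1-15 roots 3 members rose against Ler, namely matK, clpP and rps19, and rpoA fell. Between the wild types 20 of 31 members differed, 15 higher and 5 lower in Col-0 than in Ler, led by ccsA, rpoA and rps4. One of the 15 was rpoB, whose call is not counted as support because of the filter, and of the 30 members above the limit in every group 19 differed, 14 higher and 5 lower in Col-0.

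Against these counts stands the share of all tested probe sets that passed. It was 2.44% for CLE3ox, where 6.45% of the members passed. In clv1-15 it was 15.3%, and 12.9% of the members passed. Between Col-0 and Ler it was 45.3%, and 64.5% of the members passed, with rpoB among them. Without rpoB 19 of 30 members passed there. The share of members called in clv1-15 was thus close to, and a little below, that of the array as a whole.

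**Figure D1:**
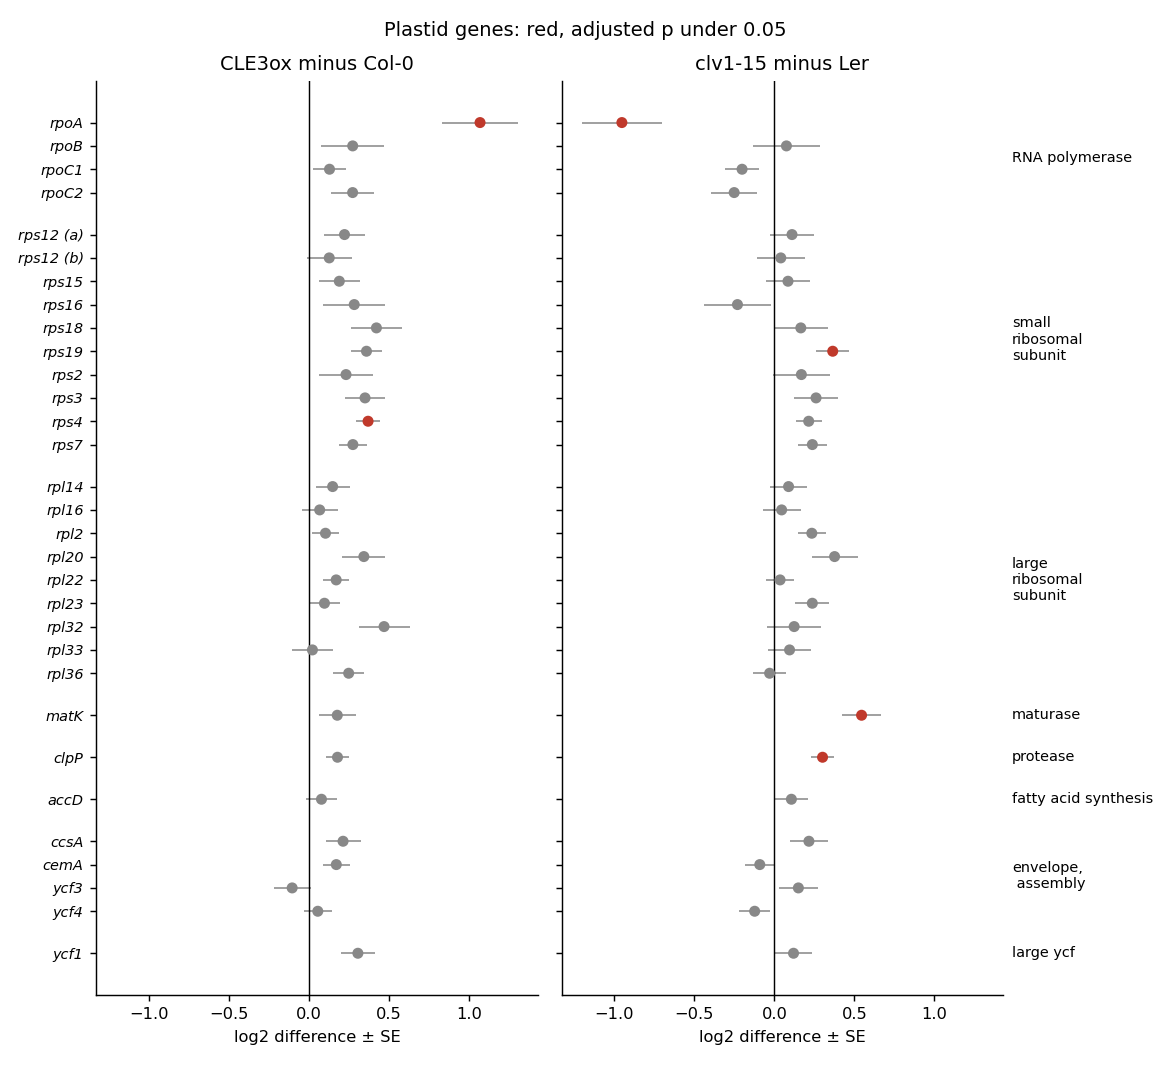
Log2 difference ± SE (horizontal axis) of the 31 tested probe sets, grouped by role, for CLE3ox minus Col-0 (left) and clv1-15 minus Ler (right), with red points for an adjusted p under 0.05. On the left all points but that of ycf3 lie right of 0, and rpoA lies farthest from 0 on both sides, at 1.07 for CLE3ox and at -0.95 for clv1-15.

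The direction of the members was more uniform in CLE3ox than their calls. Of the 31 members 30 had a positive difference in CLE3ox, or 96.8%, against 51.9% of all tested probe sets, and the median was 0.21 against 0.01. The exception was ycf3 at -0.11 ± 0.12 (adjusted p = 0.74). In each line on its own, 30 members were positive in line 12-1 with a median of 0.18, and 29 in line 17-3 with a median of 0.22. The lines share the 3 Col-0 arrays, so these are not separate tests. In clv1-15 24 of 31 members were positive, or 77.4% against 46.4% of all tested probe sets, with a median of 0.11 against -0.02. Of 38 tested probe sets of plastid photosynthesis genes, 34 were positive in CLE3ox (89.5%) and 35 in clv1-15 (92.1%). The positive direction was thus not particular to the members.

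Averaged over the 31 probe sets, each array's level relative to the mean of all 13 arrays was 0.15 and 0.26 (log2) in line 12-1 and 0.22 and 0.24 in line 17-3, against -0.00, 0.01 and -0.05 in Col-0. All 4 CLE3ox arrays lay above all 3 Col-0 arrays. The clv1-15 arrays stood at -0.17, -0.09 and -0.04, against -0.12, -0.23 and -0.19 in Ler. Here the groups overlapped, since the first clv1-15 array was below the first Ler array. The 38 tested probe sets of plastid photosynthesis genes gave 0.16, 0.23, 0.17 and 0.31 on the CLE3ox arrays, against 0.04, -0.01 and -0.02 in Col-0, so in CLE3ox the photosynthesis genes stood above Col-0 as the members did. They gave -0.12, -0.02 and -0.02 in clv1-15, against -0.35, -0.21 and -0.16 in Ler. For these genes the clv1-15 and Ler arrays did not overlap, unlike for the members, and the first Ler array was the lowest of its group for them and the highest for the members.

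**Figure D2:**
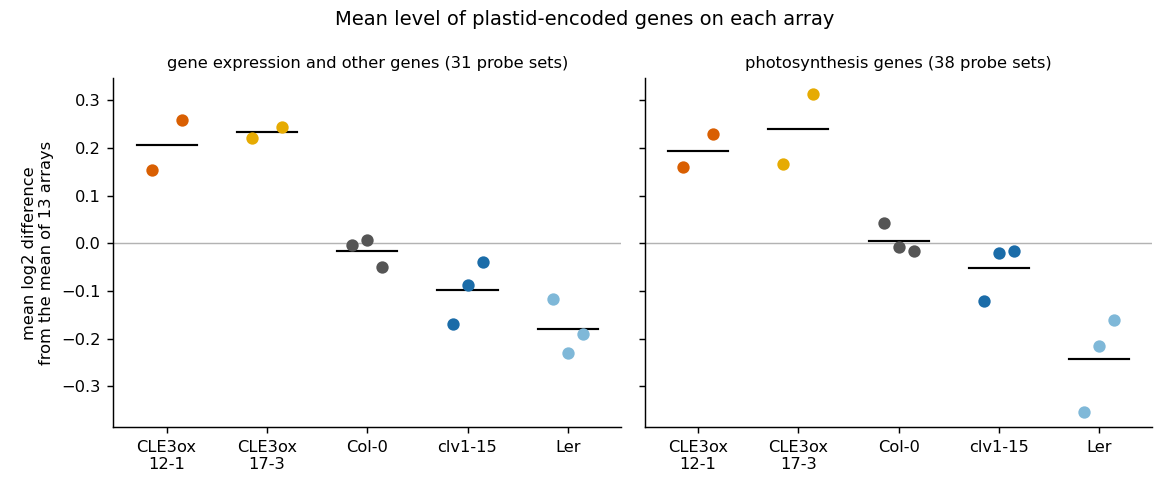
Mean log2 difference from the mean of 13 arrays (vertical axis) on each array for the 31 members (left) and for 38 plastid photosynthesis probe sets (right), with a point per array and a bar for the group mean. The CLE3ox points lie between 0.15 and 0.26 for the members, above the Col-0 points between -0.05 and 0.01.

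Of the core polymerase subunit genes rpoA passed in CLE3ox and in clv1-15, and no difference between subunits was tested. rpoA encodes the alpha subunit, on which the core enzyme assembles. Its signal was 1062.5 and 2129 in line 12-1 and 1502 and 2037 in line 17-3, against 848, 706 and 749 in Col-0. In clv1-15 it was 1418, 1131 and 1286, against 3065, 1536 and 3238 in Ler. Every CLE3ox array was above every Col-0 array, and every clv1-15 array was below every Ler array, but the spread within groups was wide. The second array of each CLE3ox line was the higher one, and the second Ler array lay closest to the clv1-15 arrays.

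The CLE3ox rise of rpoA was 1.07 ± 0.24, or 2.1-fold (adjusted p = 0.022). By line it was 0.96 ± 0.28 in line 12-1 (adjusted p = 0.24, not past) and 1.18 ± 0.28 in line 17-3 (0.029), and the lines differed by 0.21 ± 0.31 (0.97). In clv1-15 rpoA fell by 0.95 ± 0.25 on the log2 scale, which is 1.94-fold lower (adjusted p = 0.019). The difference between the CLE3ox and the clv1-15 effect was 2.02 ± 0.34 (adjusted p = 0.0015), and these effects share no arrays. Since CLE3ox is in Col-0 and clv1-15 in Ler, genotype and accession cannot be told apart in it. rpoA was the 1 member of 31 that passed this test, in which 11.2% of all tested probe sets passed. By group mean rpoA was highest in Ler, followed by CLE3ox, clv1-15 and Col-0, and the CLE3ox arrays overlapped both the Ler and the clv1-15 arrays.

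Both rpoA calls hinged on single arrays. The CLE3ox call was lost without the second array of line 12-1 (0.82, adjusted p = 0.090), the second of line 17-3 (0.96, 0.089) or any Col-0 array (1.14, 1.01 and 1.05, with 0.056, 0.084 and 0.087). It was also lost with no filter on low values (adjusted p = 0.057) and with a variance prior without a trend (0.058). The clv1-15 call was lost without clv1-15 array 2 (-0.87, adjusted p = 0.072), Ler array 1 (-0.80, 0.086) or Ler array 3 (-0.76, 0.084). The difference between the effects passed without any one array (1.77 to 2.37), with an adjusted p of 0.00012 to 0.0065 over its alternatives.

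The 3 high arrays for the bioD spike-in control, the second of each CLE3ox line and the third Col-0 array (3894.3 to 4092.7, against 2700.2 to 3241.1 on the other 10 arrays), form no labelled batch. With this grouping as a block the CLE3ox difference of rpoA was 1.00 (adjusted p = 0.018). Within the arrays of low spike-in signal it was 0.70 (0.41), and within those of high signal 1.46 (0.12). The part of this grouping in the result was not tested further.

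rpoB and rpoC1 encode the beta and beta' subunits, and rpoC2 the beta'' subunit, of the same enzyme. None of them passed in CLE3ox (0.27 ± 0.20, 0.13 ± 0.10 and 0.27 ± 0.13, adjusted p 0.37 to 0.63) or in clv1-15 (0.08 ± 0.21, -0.20 ± 0.11 and -0.25 ± 0.14, adjusted p 0.22 to 0.85). Between the wild types rpoC1 was higher in Col-0, and rpoC2 and rpoA were lower. rpoB gave 77.0, 106 and 74.4 in Col-0, against 53.1, 30 and 47.8 in Ler, a difference of 0.78 ± 0.21 (adjusted p = 0.0068). Since its mean in Ler was under the limit of the filter and its mean in Col-0 above it, the gene was tested only because it was high in the Col-0 background, and this value is a description. rpoC1 gave 1247, 1080.1 and 1046 in Col-0, against 783, 1002 and 900.0 in Ler, and was higher by 0.33 ± 0.11 (0.022). Neither gene's wild types overlapped.

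rpoC2 ran the other way, at 322, 433 and 359 in Col-0, against 567, 545 and 399 in Ler, where the second Col-0 array overlapped the third Ler array. Its difference was -0.42 ± 0.14 (adjusted p = 0.026). rpoA was lower in Col-0 by a log2 difference of -1.68 ± 0.25, or 3.20-fold (adjusted p = 6.3e-05). The CLE3ox and wild-type comparisons share the Col-0 arrays, and the clv1-15 and wild-type comparisons share the Ler arrays. The calls on rpoC1 and rpoC2 ended without the first Col-0 array (0.25, adjusted p = 0.11, and -0.33, 0.12) or the first Ler array (0.24, 0.11, and -0.33, 0.11). That on rpoC2 also ended without the third Col-0 array (-0.40, 0.065) or the second Ler array (-0.35, 0.093). The rpoC2 effect in CLE3ox and in clv1-15 differed by 0.52 (adjusted p = 0.099), and by 0.68 (0.031) without the third Ler array.

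**Figure D3:**
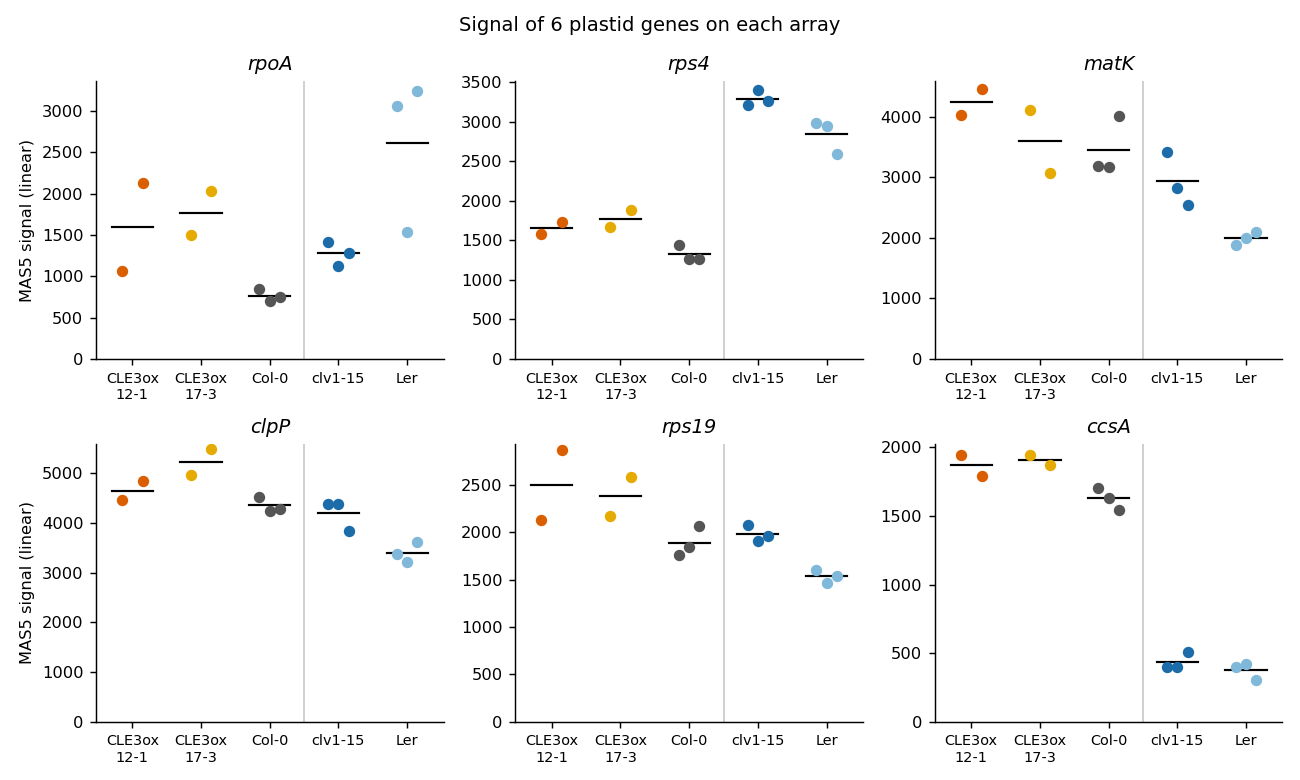
MAS5 signal (vertical axis, linear, from 0) of 6 plastid genes on each array, with a point per array and a bar for the group mean, for CLE3ox lines 12-1 and 17-3, Col-0, clv1-15 and Ler. rpoA lies at 1062.5 to 2129 in CLE3ox, above 706 to 848 in Col-0, and ccsA lies at 1544 to 1945 in the Col-0 background and at 301 to 508 in the Ler background.

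Of the 10 tested probe sets for small subunit proteins, 1 rose in CLE3ox, 1 rose in clv1-15 and 0 fell in either. All 10 were positive in CLE3ox, with a median of 0.28, and 9 were positive in clv1-15, with a median of 0.17. rps4 encodes S4, a protein that binds the 16S rRNA early in assembly of the bacterial small subunit. Its signal was 1583 and 1728 in line 12-1 and 1667 and 1878 in line 17-3, against 1441, 1266 and 1265 in Col-0. Every CLE3ox array was above every Col-0 array. The rise was 0.37 ± 0.08, or 1.29-fold (adjusted p = 0.015), with 0.32 ± 0.09 in line 12-1 (0.21, not past) and 0.42 ± 0.09 in line 17-3 (0.017).

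The rps4 call in CLE3ox was lost without the second array of line 12-1 (0.34, adjusted p = 0.071), the second of line 17-3 (0.33, 0.060), Col-0 array 2 (0.34, 0.073) or Col-0 array 3 (0.34, 0.084). With the spike-in grouping as a block it was 0.36 (0.015). Within the arrays of low and of high spike-in signal it was 0.26 (0.38) and 0.50 (0.12).

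In the Ler background rps4 stood higher on every array, at 3206, 3407 and 3265 in clv1-15, against 2983, 2951 and 2588 in Ler. The clv1-15 arrays did not overlap the Ler arrays, yet the difference of 0.21 ± 0.08 did not pass (adjusted p = 0.087). Col-0 was lower than Ler by a log2 difference of -1.09 ± 0.08, or 2.13-fold (adjusted p = 3.1e-08). The order was clv1-15, Ler, CLE3ox and Col-0, and the CLE3ox rise left rps4 below all arrays of the Ler background.

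rps19, for a protein of the small subunit head in bacteria, gave 2079, 1907 and 1958 in clv1-15, against 1603, 1463 and 1540.2 in Ler. The groups did not overlap, and the rise was 0.36 ± 0.10, or 1.29-fold (adjusted p = 0.027). In CLE3ox it gave 2132 and 2867 in line 12-1 and 2171 and 2590.1 in line 17-3, against 1758, 1846 and 2063 in Col-0. Those groups did not overlap either, but the difference of 0.36 ± 0.10 did not pass (adjusted p = 0.067). Col-0 was higher than Ler by 0.29 ± 0.10 (0.029). The clv1-15 call ended without clv1-15 array 1 (0.33, adjusted p = 0.089) or 3 (0.37, 0.056), or without Ler array 2 (0.33, 0.081) or 3 (0.37, 0.062). The wild-type call ended without Col-0 array 2 (0.31, 0.053) or 3 (0.23, 0.12), or without Ler array 2 (0.26, 0.089) or 3 (0.30, 0.061). With a variance prior without a trend both ended (0.051 and 0.052).

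rps12, whose product sits at the decoding centre of the bacterial ribosome and whose RNA is joined from separate transcripts by trans-splicing, has 2 probe sets. One gave 121, 99.9 and 126 in Col-0, against 59.8, 70.1 and 57.4 in Ler, and the other 633, 598 and 498 in Col-0, against 325, 294 and 316 in Ler. Both were higher in Col-0 on every array, by 0.75 ± 0.14 (adjusted p = 0.00036) and 0.85 ± 0.15 (0.0003). In CLE3ox they differed from Col-0 by 0.22 ± 0.13 (0.46) and 0.13 ± 0.14 (0.75), and in clv1-15 from Ler by 0.11 ± 0.14 (0.63) and 0.04 ± 0.15 (0.89). The probe sets thus gave the same calls in all 3 comparisons.

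rps7, another protein of the small subunit head in bacteria, gave 1808 and 1671 in line 12-1 and 1834 and 1685 in line 17-3, against 1579.8, 1360.3 and 1399 in Col-0. The groups did not overlap, but the difference of 0.27 ± 0.09 did not pass (adjusted p = 0.12). Its Ler arrays, at 1201, 1123 and 1193, lay below all Col-0 arrays (0.30 ± 0.09 for Col-0 minus Ler, adjusted p = 0.015). That call ended without the first Col-0 array (0.23, adjusted p = 0.080) or the second Ler array (0.27, 0.051). rps15 gave 259.6, 324 and 283 in Col-0, against 212, 251 and 201 in Ler, with no overlap and a difference of 0.36 ± 0.14 (0.044). Its call ended without Col-0 array 2 or 3 (0.28, adjusted p = 0.17, and 0.37, 0.075) or Ler array 1 or 3 (0.34, 0.11, and 0.30, 0.14). It also ended with no filter on low values (0.071) and with a variance prior without a trend (0.053).

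rps18, a small subunit protein, had a difference in CLE3ox that did not pass, at 0.42 ± 0.16 (adjusted p = 0.21). It gave 290.4 and 434 in line 12-1 and 357 and 498 in line 17-3, against 243, 313 and 304 in Col-0, so that the first array of line 12-1 overlapped Col-0. rps3, which lines the mRNA entry of the bacterial small subunit, showed a similar layout over arrays, with 2728 and 3883 in line 12-1 and 2952 and 4208 in line 17-3, against 2469, 2839 and 2670.3 in Col-0 (0.35 ± 0.13, adjusted p = 0.19). As for rpoA, the second array of each line was the higher one for both genes. rps16 had a low signal of 45.9 to 136.7, and its CLE3ox and clv1-15 effects differed by 0.51 (adjusted p = 0.27). rps2 passed in none of the comparisons, with 0.23 ± 0.17 in CLE3ox, 0.17 ± 0.18 in clv1-15 and 0.20 ± 0.18 for Col-0 minus Ler.

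None of the 9 probe sets for large subunit proteins passed in CLE3ox or in clv1-15, where 3 had an unadjusted p under 0.05 in each. Of all 15922 tested probe sets, 2297 in CLE3ox and 4846 in clv1-15 had an unadjusted p under 0.05. All 9 were positive in CLE3ox, from 0.02 to 0.47 with a median of 0.15, and 8 were positive in clv1-15, with a median of 0.09. The largest CLE3ox difference of the large subunit was that of rpl32, which gave 1125 and 1840.2 in line 12-1 and 1203 and 1764 in line 17-3, against 855, 1102 and 1202 in Col-0. The second arrays of both lines lay well above Col-0, and the first array of line 12-1 overlapped it. The difference was 0.47 ± 0.16 (adjusted p = 0.16), and without that first array 0.64 (0.033).

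rpl20 had the largest positive clv1-15 difference of the large subunit. Its signals were 178, 204 and 223 in clv1-15, against 155, 159.6 and 140.1 in Ler, with no overlap and a difference of 0.38 ± 0.14 (adjusted p = 0.090). In Col-0 it gave 235, 198 and 199, also above all Ler arrays (0.44 ± 0.14, adjusted p = 0.022). That call ended without the first Col-0 array (0.36, 0.093) or the third Ler array (0.39, 0.075).

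Of the other large subunit genes that differed between the wild types, 2 were higher in Col-0. rpl23, for a protein at the exit of the ribosomal tunnel in bacteria, gave 2442, 2486 and 2619.8 in Col-0, against 1415, 1543 and 1707 in Ler, a difference of 0.69 ± 0.11 (adjusted p = 7.4e-05). rpl2, whose product lies near the peptidyl transferase centre in bacteria, gave 7221, 7061 and 5828 in Col-0, against 5535, 5029.9 and 6014 in Ler. Col-0 array 3 overlapped Ler, and the difference was 0.28 ± 0.09 (0.017). The rpl2 call ended without Col-0 array 1 or 2 (0.22, adjusted p = 0.088, and 0.23, 0.073) or Ler array 2 (0.21, 0.084). 

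rpl36 and rpl14 were lower in Col-0. rpl36, for a small zinc-binding protein in bacteria, gave 1371, 1050.4 and 1191 in Col-0, against 1894, 1755 and 1811 in Ler, a difference of -0.60 ± 0.11 (adjusted p = 0.00027). rpl14 gave 551, 476 and 527 in Col-0, against 708, 730.1 and 602 in Ler, a difference of -0.38 ± 0.11 (0.012). Neither overlapped. The rpl14 call ended without the second Col-0 array (-0.32, adjusted p = 0.057) or the second Ler array (-0.33, 0.052). rpl16, rpl22, rpl32 and rpl33 did not pass between the wild types, with differences from -0.18 to 0.02.

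matK, the plastid maturase that binds group II introns, had the largest rise in clv1-15. It gave 3413, 2829 and 2549.9 in clv1-15, against 1876, 2004 and 2093 in Ler, and the groups did not overlap. The rise was 0.55 ± 0.12, or 1.46-fold (adjusted p = 0.0077), and it passed without any one array (0.43 to 0.64, adjusted p 0.0058 to 0.039 over all alternatives). In Col-0 it gave 3190.1, 3169 and 4006, above all Ler arrays (0.78 ± 0.12, adjusted p = 8.9e-05). In CLE3ox the difference from Col-0 was 0.18 ± 0.11 (0.53), with 4026 and 4458 in line 12-1 and 4111 and 3076 in line 17-3. The CLE3ox and clv1-15 effects on matK differed by -0.37, which did not pass (adjusted p = 0.17).

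clpP encodes a proteolytic subunit of the plastid Clp protease. Its signal was 4374, 4381 and 3835 in clv1-15, against 3366, 3218 and 3619.7 in Ler, and the groups did not overlap. The rise was 0.30 ± 0.07, or 1.23-fold (adjusted p = 0.014). That call ended without clv1-15 array 1 or 2 (0.27 each, adjusted p = 0.057 each) or Ler array 2 (0.26, 0.053). In Col-0 it gave 4525, 4242 and 4286, above all Ler arrays (0.36 ± 0.07, adjusted p = 0.0012). In CLE3ox the difference was 0.18 ± 0.07 (0.23), with 4453 and 4839 in line 12-1 and 4964 and 5479 in line 17-3.

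accD encodes the carboxyltransferase beta subunit of the plastid acetyl-CoA carboxylase, which starts fatty acid synthesis. It differed by 0.08 ± 0.10 in CLE3ox (adjusted p = 0.78) and by 0.11 ± 0.10 in clv1-15 (0.52). Between the wild types it was 1749, 1539 and 1345 in Col-0, against 1007, 1203 and 1103 in Ler, with no overlap and a difference of 0.47 ± 0.10 (0.0014).

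ccsA showed the largest difference of any member. It encodes a protein that attaches haem to c-type cytochromes in the thylakoid. The signal was 1707, 1635 and 1544 in Col-0, against 400.5, 424 and 301 in Ler, and was higher in Col-0 by 2.09 ± 0.12, or 4.25-fold (adjusted p = 1.2e-09). The derived genotypes lay with their own backgrounds, at 1943 and 1794 in line 12-1, 1945 and 1872 in line 17-3 and 401, 399.6 and 508 in clv1-15. CLE3ox arrays were all above Col-0, but the difference of 0.21 ± 0.11 did not pass (adjusted p = 0.40). In clv1-15 it was 0.22 ± 0.12 (0.23).

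ycf3, an assembly factor of photosystem I, was also higher in Col-0 than in Ler. It gave 274, 274 and 261 in Col-0, against 178, 138 and 155 in Ler, with no overlap and a difference of 0.73 ± 0.12 (adjusted p = 0.00017). ycf4, another photosystem I assembly factor, and cemA, an inner envelope protein, did not pass in any comparison. Their differences were 0.05 and 0.17 in CLE3ox, -0.12 and -0.09 in clv1-15 and 0.09 and 0.01 for Col-0 minus Ler. ycf1, for a protein of the inner envelope import machinery, differed by 0.30 ± 0.11 in CLE3ox (0.18), 0.12 ± 0.12 in clv1-15 (0.52) and 0.02 ± 0.12 between the wild types (0.91).

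**Figure D4:**
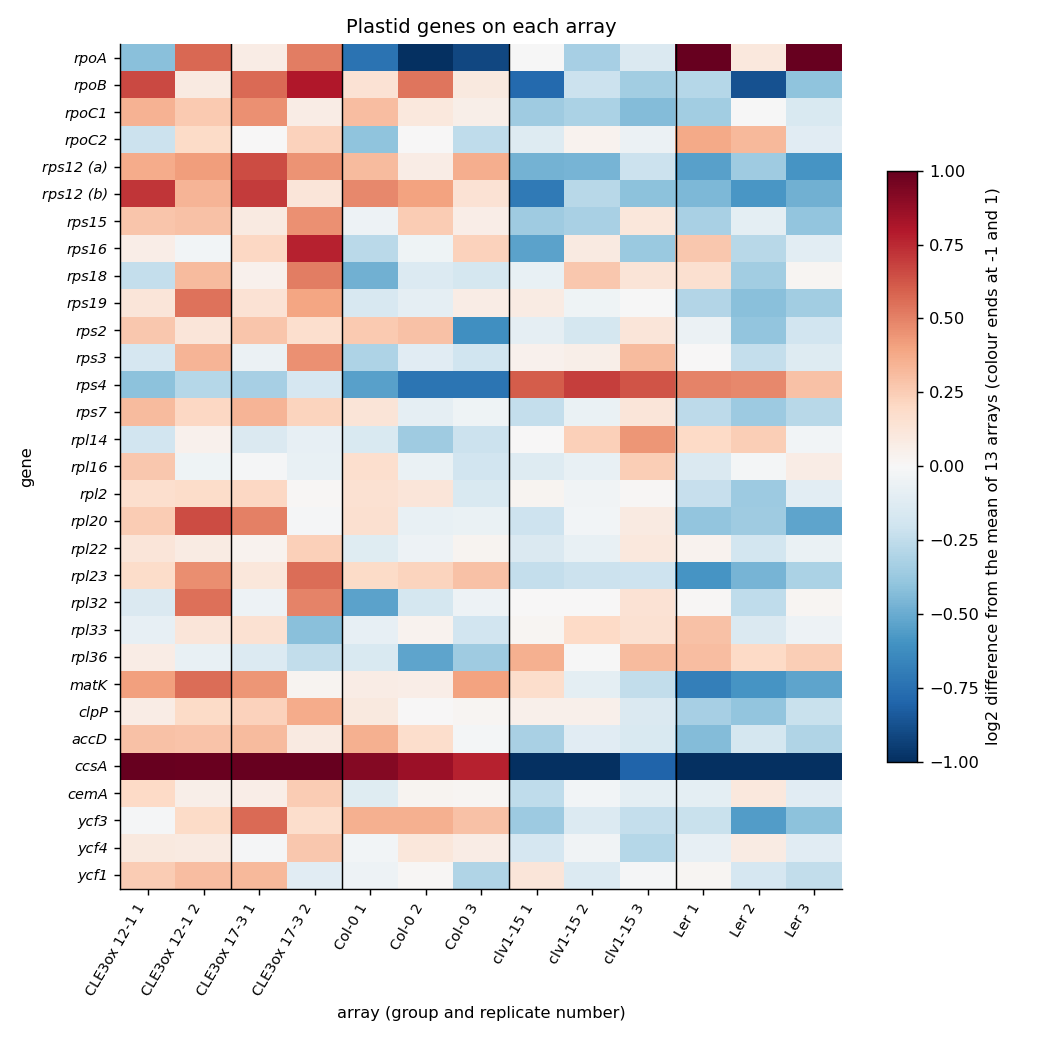
Log2 difference of each of the 31 probe sets (rows) from its own mean over 13 arrays (colour, cut at -1 and 1), with the arrays in columns by group and replicate number. The row of ccsA is red on all arrays in the Col-0 background and blue on all in the Ler background, that of rps4 the reverse, and rpoA is lowest in Col-0.

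Counts of members whose groups did not overlap gave a further description. In CLE3ox 8 of 31 members, or 25.8%, were above Col-0 on every array, against 6.54% of all tested probe sets. They were rpoA, rps4, rps19, rps7, rpl22, ccsA, cemA and 1 of the rps12 probe sets. In clv1-15 9 members, or 29.0%, were above Ler on every array, against 14.7% of all tested probe sets. They were matK, clpP, rps19, rps3, rps4, rps7, rpl2, rpl20 and rpl23. Col-0 was above Ler on every array for 14 members, or 45.2%, against 25%, and below it for 4, or 12.9%, against 30%; rpoB is one of the 14.

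Line by line, rpoA and rps4 passed in line 17-3, where 3.32% of all tested probe sets passed. The call on rpoA there ended without any one array of line 17-3 or Col-0 (adjusted p 0.053 to 0.28), with no filter on low values (0.069) and with a variance prior without a trend (0.066). That on rps4 ended without the second array of line 17-3 (0.22), Col-0 array 2 (0.060) or Col-0 array 3 (0.065), and with only the groups of the comparison in the fit (0.067). In line 12-1, where 0.433% passed, 0 of 31 members passed. There 9 members had an unadjusted p under 0.05, as did 1347 of the 15922 tested probe sets. Between lines 17-3 and 12-1, where 0.264% passed, 0 members passed by limma, and the median difference was 0.02. In that comparison 0 members had an unadjusted p under 0.05, against 1108 of the 15922 tested probe sets. The gap between calls in the lines is therefore not a shown difference between them.

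The wild-type differences were set out by gene order, which was taken from the TAIR10.1 annotation. The cluster from rpl23 to rpoA holds mostly ribosomal protein genes, like the bacterial operons it resembles. Along it Col-0 minus Ler was 0.69 for rpl23, 0.28 for rpl2, 0.29 for rps19, 0.02 for rpl22, -0.09 for rps3, -0.00 for rpl16, -0.38 for rpl14, -0.60 for rpl36 and -1.68 for rpoA. The difference thus turned from higher to lower in Col-0 along the cluster, with passes at both ends and none among rpl22, rps3 and rpl16. The rpoB, rpoC1, rpoC2 and rps2 genes, which also lie next to each other, gave 0.78, 0.33, -0.42 and 0.20. The value of rpoB is a description only, since the gene passed the filter on low values only through the Col-0 background. Neighbours could differ sharply, as rpl32 at -0.18 ± 0.17 (adjusted p = 0.40) lies next to ccsA at 2.09. Whether the array's probes match the plastid sequences of both accessions alike was not tested.

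**Figure D5:**
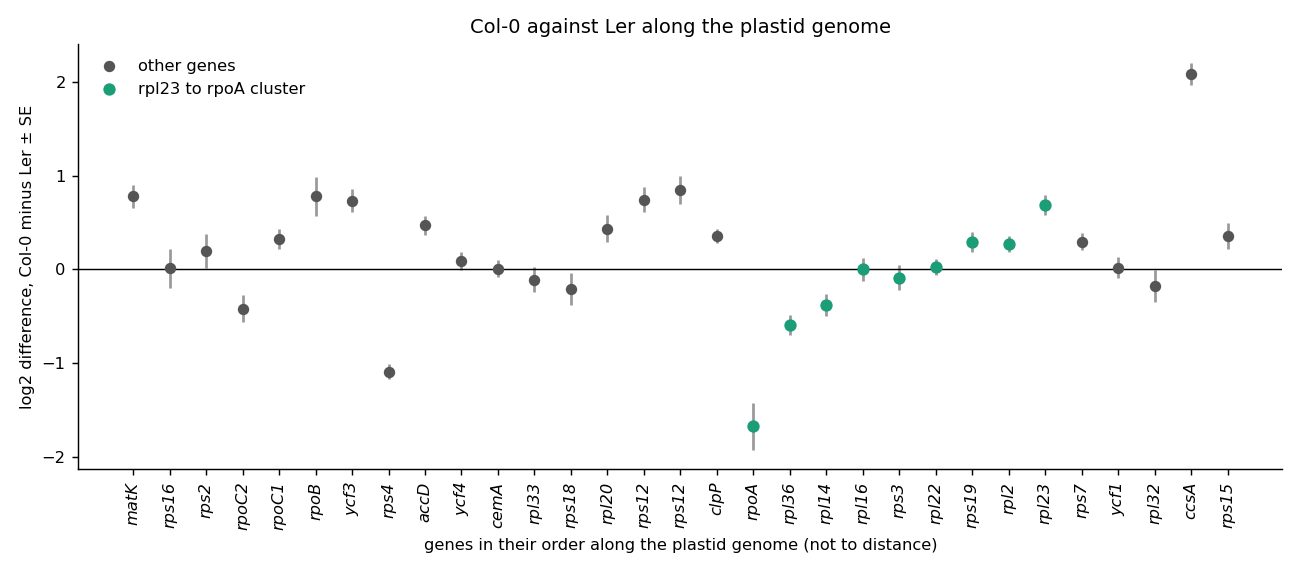
Log2 difference ± SE, Col-0 minus Ler (vertical axis), of the 31 probe sets in their order along the plastid genome (horizontal axis, not to distance), with the rpl23 to rpoA cluster in green. Within the cluster the difference runs from 0.69 at rpl23 to -1.68 at rpoA, and ccsA stands apart at 2.09. The point of rpoB is a description, since rpoB passed the filter on low values only through the Col-0 background.

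The plastid photosynthesis genes were tested in the same fit. In CLE3ox 1 of 38 passed, psbF of photosystem II (0.35, adjusted p = 0.041), with a median of 0.22 against 0.21 for the members. In clv1-15 5 rose and 0 fell, with a median of 0.15, among them rbcL for the large subunit of Rubisco (0.44, adjusted p = 0.0069). Between the wild types 16 were higher and 4 lower in Col-0, with a median of 0.30. The shares that passed in these 3 comparisons were 2.63%, 13.2% and 52.6%, against 2.44%, 15.3% and 45.3% of all tested probe sets.

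Nuclear genes that work with the members were followed by lists, of which few genes have a probe set with a single gene name. Of 34 nuclear genes for plastid ribosomal proteins 10 were tested, of which 9 had a positive difference in CLE3ox and 9 in clv1-15. In CLE3ox 1 rose, PRPS6 (0.42 ± 0.10, adjusted p = 0.038), with a list median of 0.21. PRPS6 averaged 221 ± 37.9 in CLE3ox (n = 4) and 159 ± 8.9 in Col-0 (SD, n = 3). In clv1-15 1 rose, PSRP1 (0.61 ± 0.16, adjusted p = 0.020), with a list median of 0.08. Between the wild types 1 was higher in Col-0, PRPL34 (0.84 ± 0.10, adjusted p = 6.2e-06), and 4 were lower, PRPS6, PRPL5, PRPL17 and PRPL19A (-0.46 to -0.29), with a list median of -0.28.

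Among the 9 sigma factor and phage-type polymerase genes only RPOTMP, for a polymerase of plastids and mitochondria, was tested. It fell in clv1-15, to 129 ± 5.6, against 170.3 ± 17.3 in Ler (SD, n = 3 each), a log2 difference of -0.36 ± 0.11 (adjusted p = 0.036). It did not pass in CLE3ox (-0.08, 0.78) or between the wild types (-0.19, 0.16). Of 14 nuclear Clp protease genes 5 were tested, 0 passed in CLE3ox or clv1-15 by limma (0 and 1 at an unadjusted p under 0.05), and CLPT2 was higher in Col-0 than in Ler (1.22 ± 0.13, adjusted p = 1.7e-06). Of 5 partners of ccsA and ycf3, CCS1, CCDA and PYG7 were tested, and CCS1, which acts with ccsA, was lower in Col-0 than in Ler (-0.40 ± 0.14, adjusted p = 0.024), the reverse of ccsA. No gene of the 13 PEP-associated proteins (of the plastid-encoded polymerase) or of the 4 partners of accD had a probe set with a single gene name (0 each).

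Markers of other tissue were read beside these results. Of 20 green shoot markers 3 were measured, RCA, LHCB4.1 and PORB, and 0 of them stood at 0. Their summed signal was 759 to 944.5 in line 12-1 and 1133.8 to 1188.3 in line 17-3, against 798.3 to 902.1 in Col-0, and 1500.8 to 1645.7 in clv1-15, against 944.1 to 1334.8 in Ler. In clv1-15 RCA and LHCB4.1 rose (0.49 and 0.43, adjusted p = 0.014 and 0.0066), and in CLE3ox 0 of the 3 passed (1 at an unadjusted p under 0.05). All 3 were positive in CLE3ox, at 0.21 for RCA, 0.25 for LHCB4.1 and 0.23 for PORB, with a median of 0.23 beside 0.21 for the members. By line they were 0.00 to 0.07 in line 12-1 and 0.39 to 0.51 in line 17-3. Between the wild types RCA was lower in Col-0 than in Ler by a log2 difference of -1.04 (adjusted p = 6.1e-06), PORB was higher by 0.72 (0.031), and LHCB4.1 differed by 0.05 (0.68). In line 17-3 LHCB4.1 rose (0.51, adjusted p = 0.012) and EXPA7, a root marker described next, fell by 0.45 (0.021). The part of green tissue in the results for the members was not tested. Of 12 root markers EXPA7 and EXPA18, expansins of root hairs, were measured, with signals of at least 655.5 on every array, and 0 passed in CLE3ox (-0.31 and -0.27, both at an unadjusted p under 0.05). In clv1-15 EXPA18 rose (0.68, adjusted p = 0.00059), and both were higher in Col-0 than in Ler (1.07 and 1.29).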

How the data were processed

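RNA of whole roots was measured on 13 Affymetrix ATH1 arrays. Per the labels' protocols, single-stranded cDNA was made from amplified cRNA and biotin-labelled; its priming is not given in the sources used here. The authors deposited MAS5 signals, which are intensity values on a linear scale (per the submitters' processing notes, with no version). On every array the mean with 2% trimmed at each end was 500. Depth does not apply, and the number of arrays limits the precision. Arrays of a group correlated at r = 0.9872 to 0.9917 across probe sets, 0 pairs were identical and 0 columns lacked a sample.

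Signals were taken as log2(signal + 16), and the 64 controls and the lowest 30% of probe sets by mean were left out. limma 3.58.1 in R 4.3.3 fitted 5 groups on all arrays (lmFit, eBayes with a trend), with Benjamini-Hochberg adjustment over 15922 probe sets per comparison at a threshold of 0.05. The CLE3ox effect averages the lines before Col-0 is subtracted, and its SE does not hold the difference between them. A fold change on this scale understates that of low signals. The fit was also run on simulated data with independent noise for each probe set. Those data held no effect shared by the probe sets of an array, so they do not test for one.

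Members and gene lists were chosen with earlier results of these data known. Values are given for members past the threshold and for the 4 largest differences in CLE3ox, clv1-15, Col-0 against Ler and the difference of effects. Other members and the gene order were added after their values were seen. Symbols are those of the platform's table, of whose probe sets 13513 had 1 gene, 503 several and 8730 none, and 13436 of the first matched TAIR10.1 by gene ID. The build behind the array is not given in the sources used here, so no coordinates are printed. Alternatives changed the pseudocount, filter, scaling, variance prior, grouping of the lines, arrays in the fit and replicate block, and left out each array in turn.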

Additional observations from a re-analysis of the deposited data

Results flagged for a closer look

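The effects of CLE3ox and of clv1-15 on the plastid RNA polymerase gene rpoA differed. Its CLE3ox effect minus its clv1-15 effect was 2.02 ± 0.34 on the log2 scale (limma adjusted p = 0.0015, an interaction test on separate arrays). It was 1.07 in CLE3ox, higher on 4 of 4 arrays than on any Col-0 array, and -0.95 in clv1-15, lower on 3 of 3 arrays than on any Ler array. On leaving out each of the arrays in turn the difference between the effects lay between 1.77 and 2.37. The call of each effect on its own was lost without some single arrays. CLE3ox is in Col-0 and clv1-15 is in Ler, and rpoA differed by -1.68 for Col-0 minus Ler. Genotype and accession cannot be told apart in the difference between the effects.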

How the results depend on the processing

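The number of arrays limits these results. No alternative turned a sign among the 37 named results. Of 29 past the threshold 14 were lost under no alternative. Among these 14 is rpoB between the wild types, which is not counted as support because of the filter. Of 8 not past 2, rpl32 in CLE3ox and rpoC2 in the difference of effects, passed under some alternative. Members called in CLE3ox (2) fell to 1 with no filter on low values and to 1 with a variance prior without a trend, with 0 to 4 on leaving out single arrays. In line 17-3 (2) they were 1 under each of these settings and 1 with only the groups of the comparison, and 0 to 2 on leaving out single arrays. In clv1-15 (4) leaving out single arrays gave 2 to 3, and for the difference of effects (1) 1 to 2. Grouping by spike-in signal, chosen after seeing the data, gave 4 members in CLE3ox as a block, 0 within low and 0 within high arrays, and 0 within each for line 17-3. In the high arrays each group has 1 array, assumed to vary like clv1-15 and Ler. Calls between Col-0 and Ler numbered 15 to 20. The members' median there of 0.20 was 0.06 without Col-0 array 2 and 0.02 without the 7 probe sets that list 2 entries. Deviations of same-numbered arrays correlated at r = -0.19 to 0.31, highest between lines 12-1 and 17-3 (0.31). Between clv1-15 and Ler r was 0.01 to 0.19. The sign was not the same in all group pairs, and the numbers were not taken as pairs. With the replicate number as a block the counts stayed at 2 (CLE3ox), 0 (line 12-1), 2 (line 17-3), 0 (between lines), 4 (clv1-15), 20 (Col-0 against Ler) and 1 (difference).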
